A study of Mus musculus with 3 samples.

Results

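The genes Cdkn1a, Cdkn1b, Cdkn2b, Btg1, Btg2 and Gadd45g, which restrain the cell cycle, were followed in the embryonic mouse epidermis. They were chosen by name, and all 6 were among the 14656 genes present in both deposited count tables. Each was measured per library and cell class, in cells with and in cells without a UMI of Mki67, the gene of the proliferation antigen Ki-67. The material was dorsal skin of wild-type C57BL/6JOlaHsd embryos at E14.5 (days of embryonic development), when hair placodes form. Epithelial sheets freed from mesenchyme with Dispase II were pooled from 3 to 4 littermates, dissociated with TrypLE, stained for the placode surface protein MAdCAM-1 and sorted as live cells. The groups were total epithelium (1 library) and MAdCAM-1-positive, placode-enriched cells (2 libraries, biological replicates per the series design), all sequenced with 10x Genomics 3' chemistry. There was no mutant or treatment, and each library was a pool of embryos.

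Progress through the cell cycle is driven by cyclin-dependent kinases, and cells leave the cycle when these are held inactive. Cdkn1a (p21) and Cdkn1b (p27) are CIP/KIP inhibitors that bind cyclin-kinase complexes. The former is a classic target of p53, and the latter is controlled largely by protein degradation. Cdkn2b (p15) is an INK4 inhibitor of the cyclin D kinases and a textbook target of TGF-beta signalling. Btg1 and Btg2 are antiproliferative proteins that recruit the machinery that shortens mRNA tails, and Gadd45g is a stress-inducible growth arrest protein. In epidermis, basal cells divide, suprabasal cells differentiate above them, and placode cells gather into the hair bud with little division at its start.

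All 6 genes had an entry in the RefSeq promoter table (GRCm38.p6, 250 bases before to 50 after each start), and 5 of the windows are shown because the genes they belong to were the ones whose levels differed between classes. Searched on both strands were a p53-type pair of ACATGT letters (ACATGTNNNNACATGT, in 0.0122% of 32851 promoters), the GC box (GGGCGG, 35.7%), the CRE (TGACGTCA, 1.79%) and the TATA box (TATAAA, 13.6%). No motif overlapped a match of another kind in these 6 genes. Capitals mark the matches, and a match describes the letters only. The first Cdkn1a window lies at the upstream start (chr17:29090729-29091028, plus strand) and the second at the downstream start (chr17:29093519-29093818, plus strand). The others are Cdkn2b (chr4:89310983-89311282, minus strand), Btg1 (chr10:96616751-96617050, plus strand) and Gadd45g (chr13:51846425-51846724, plus strand).
Cdkn1a upstream start: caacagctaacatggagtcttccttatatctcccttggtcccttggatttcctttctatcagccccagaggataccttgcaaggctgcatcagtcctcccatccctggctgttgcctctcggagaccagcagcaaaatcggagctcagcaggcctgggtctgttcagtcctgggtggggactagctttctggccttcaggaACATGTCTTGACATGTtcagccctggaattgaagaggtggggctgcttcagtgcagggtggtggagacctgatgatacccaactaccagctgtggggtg
Cdkn1a downstream start: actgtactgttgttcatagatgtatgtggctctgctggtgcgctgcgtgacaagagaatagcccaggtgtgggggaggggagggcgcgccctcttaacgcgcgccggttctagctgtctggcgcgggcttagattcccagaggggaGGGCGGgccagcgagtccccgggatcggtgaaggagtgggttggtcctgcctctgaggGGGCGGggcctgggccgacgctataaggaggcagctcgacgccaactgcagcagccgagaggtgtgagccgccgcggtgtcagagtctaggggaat
Cdkn2b: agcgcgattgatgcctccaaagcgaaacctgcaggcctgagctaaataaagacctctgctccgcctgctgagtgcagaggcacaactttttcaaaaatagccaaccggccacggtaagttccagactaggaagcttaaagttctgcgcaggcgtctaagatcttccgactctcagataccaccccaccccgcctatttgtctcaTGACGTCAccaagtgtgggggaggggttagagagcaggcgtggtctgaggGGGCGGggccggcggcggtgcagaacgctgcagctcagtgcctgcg
Btg1: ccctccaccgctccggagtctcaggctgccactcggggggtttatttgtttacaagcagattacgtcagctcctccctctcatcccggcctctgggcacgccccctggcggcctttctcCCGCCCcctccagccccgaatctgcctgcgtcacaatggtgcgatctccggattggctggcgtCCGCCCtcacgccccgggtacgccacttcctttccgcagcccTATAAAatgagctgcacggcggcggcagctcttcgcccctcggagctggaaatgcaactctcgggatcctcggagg
Gadd45g: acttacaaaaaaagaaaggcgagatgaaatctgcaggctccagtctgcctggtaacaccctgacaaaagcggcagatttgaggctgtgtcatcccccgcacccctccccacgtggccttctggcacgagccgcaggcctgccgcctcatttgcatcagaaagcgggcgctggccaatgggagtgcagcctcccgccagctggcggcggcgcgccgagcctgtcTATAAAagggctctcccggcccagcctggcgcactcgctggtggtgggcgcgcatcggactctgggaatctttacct

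The p53-type pair occurred in 4 of all promoters and, among these genes, at the upstream start of Cdkn1a. Only its exact letters and spacing were searched, so other forms of a p53 site were not looked for in any of the genes. The downstream Cdkn1a start and Btg1 held 2 GC boxes each, and Cdkn2b held 1 GC box and 1 CRE. Btg1 and Gadd45g each held 1 TATA box. The windows not shown, of Cdkn1b and Btg2, held 1 and 3 GC boxes, and Btg2 also 1 CRE. GC content was 54.7% and 64.7% at the Cdkn1a starts, 57.7% for Cdkn2b, 64.7% for Btg1 and 62.3% for Gadd45g, against a median of 52.7% over all promoters.

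The libraries held 1601, 1511 and 1571 cells (total epithelium, placode-enriched 1 and placode-enriched 2), with 36924284, 34900788 and 38645840 UMIs and a median of 21977, 21652 and 23419 UMIs per cell. They shared 2 to 3 cell barcodes with one another. Clusters were made without the 6 genes and without genes that follow the cell cycle, and were named from marker genes. Placode-like cells (clusters 2 and 3, led by Sprr2a3, Fgf20 and Dkk4 and by Shh, Sp5 and Lhx2) made up 7.42%, 35.9% and 40.2% of cells. Of 9 placode markers, cluster 2 met 6, the number needed, and cluster 3 met 8. The marker Sostdc1 was lower in placode-like cells (132, 148 and 154 CPM, UMIs per 1000000 UMIs) than in basal cells (505, 631 and 564). The others were higher in placode-like than in basal cells of each library. Basal epidermis-like cells (clusters 0, 1 and 6) made up 66.1%, 20.8% and 21.2%, and suprabasal-like cells (clusters 4 and 8) 20.1%, 4.98% and 5.93%. In the placode-enriched libraries these shares were taken after the MAdCAM-1 sort, so they are not shares of the tissue. Madcam1 itself stood at 23.9, 74.0 and 64.0 CPM (UMIs per 1000000 UMIs) in placode-like cells against 1.17, 11.2 and 12.9 in basal cells.

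Different clusters held the suprabasal-like class in different libraries, which touches every suprabasal value below. Cluster 4, which met all 8 suprabasal markers and was led by Elovl4, Krt1 and Krt10, had 310 of the 320 suprabasal-like cells of the total epithelium library but 20 of 75 and 22 of 93 in the placode-enriched libraries. There most such cells came from cluster 8 (55 and 71 cells), which met 3 of the 8 markers and was led by Krt79, Cldn3 and Zfp750. The basal class was also split, with clusters 0 and 1 in total epithelium and cluster 6 in the placode-enriched libraries. The mix of the placode-like class differed too, which touches the placode values below. Cluster 2 gave 91 of its 118 cells in total epithelium but 179 of 541 and 227 of 630 in the placode-enriched libraries. Cluster 3 gave the others. Clusters left unnamed held 5.09%, 38.3% and 32.7% of cells, among them cluster 5, led by Pla2g7, Sostdc1 and Sox9.

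A Mki67 UMI was seen in 62.7%, 64.0% and 63.3% of placode-like cells, 61.0%, 77.0% and 77.1% of basal cells and 61.3%, 76.0% and 76.3% of suprabasal-like cells. With cells thinned to 10000 UMIs the shares were 45.3%, 53.5% and 52.97%, then 42.8%, 61.8% and 62.2%, then 45.2%, 67.6% and 56.0%. Top2a, the topoisomerase of dividing cells, stood at 51.7 to 110 CPM in Mki67-negative and 444 to 551 CPM in Mki67-positive placode-like cells, with the same order in the other classes. A Mki67-negative cell is therefore not a cell shown to have left the cycle. A Top2a UMI was still present in 51.6% of Mki67-negative placode-like cells (mean of 3 libraries), 55.0% of basal and 61.2% of suprabasal-like ones. These cells were also shallower, with a median of 17035 to 18001 UMIs in placode-like cells without Mki67 against 23561.5 to 24075 with it.

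**Figure D1:**
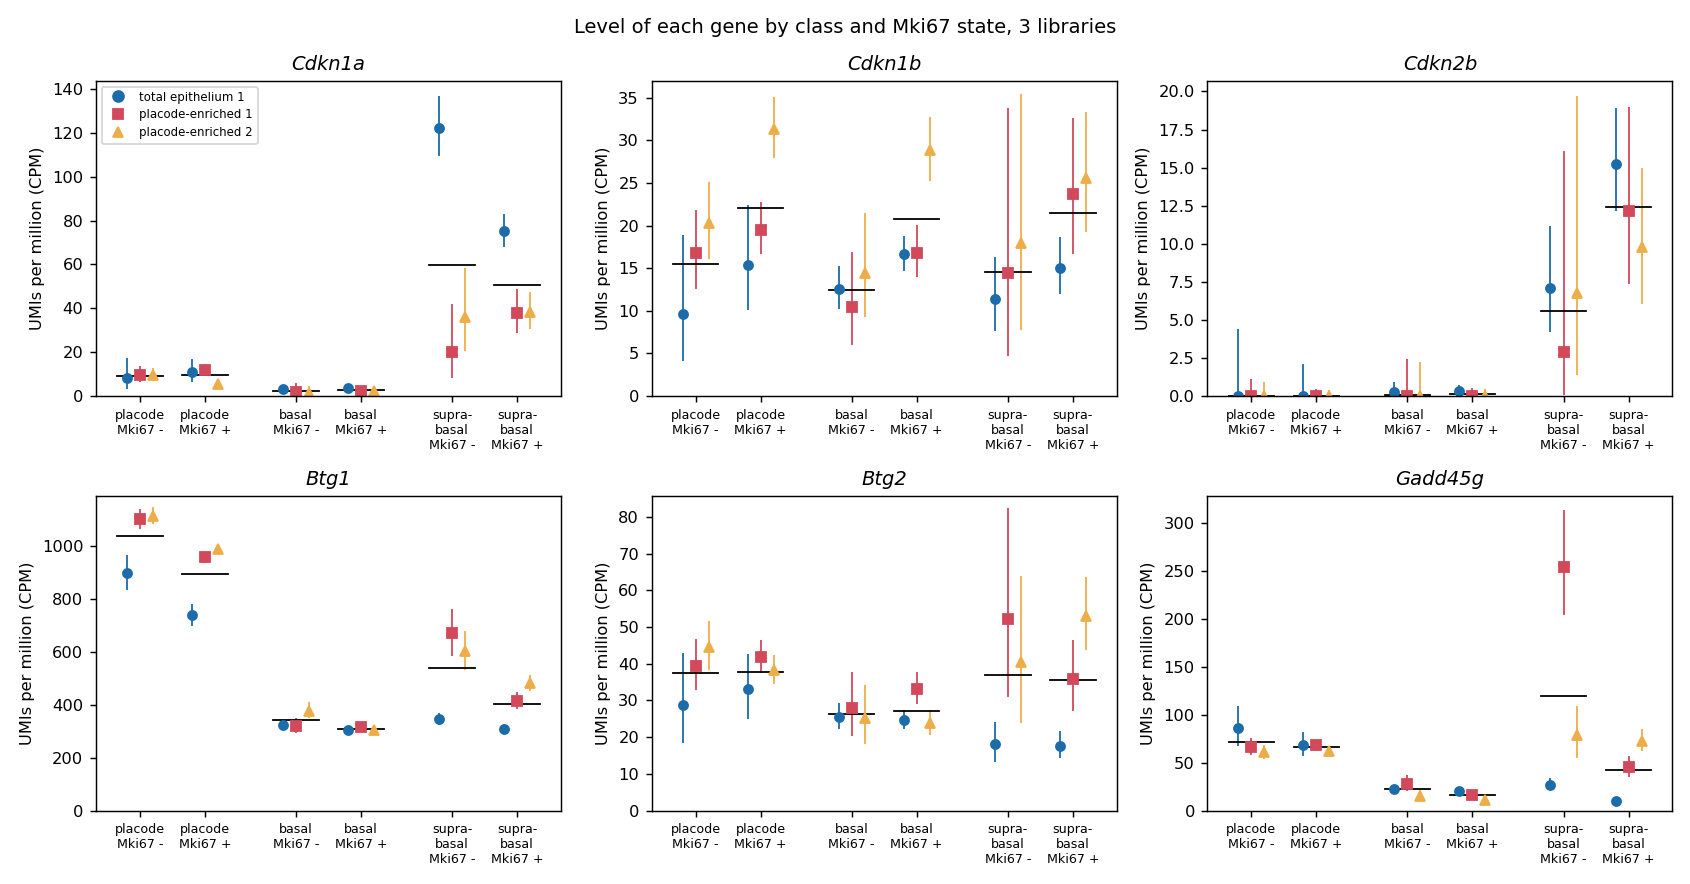
CPM (UMIs of a gene per 1000000 UMIs of the sum, linear axis from 0) of each gene in placode-like, basal and suprabasal-like cells without (-) and with (+) a Mki67 UMI. Each point is 1 library with its exact 95% Poisson counting interval, and the black line is the mean of the 3 libraries. Cdkn1a and Cdkn2b stand high in suprabasal-like cells, Btg1 in placode-like cells, and Cdkn1b at a similar level in all 3 classes.

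Of the 6 genes, Cdkn1a, Btg1 and Gadd45g differed between classes in at least 1 contrast, and Cdkn1b differed between basal cells with and without Mki67. Cdkn2b, which was nearly absent outside suprabasal-like cells, is described by its counts and left out of the class tests. Levels were compared with edgeR's quasi-likelihood test on 18 sums (3 libraries, 3 classes, 2 Mki67 states), with the library as a block and Benjamini-Hochberg adjusted p over all genes tested. Of the 6 genes, 0 passed the threshold between Mki67 states in placode-like cells, where 4.75% of 10841 genes did. In basal cells 1 passed (Cdkn1b, lower in Mki67-negative cells) against 3.69% of genes, and in suprabasal-like cells 0 against 3.65%. All 6 passed the filter on low counts, Cdkn2b through its suprabasal sums alone, so that it had to differ between classes.

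Classes were compared at a matched Mki67 state over the 6649 genes that had not been used to cluster. The clusters come from other genes of the same cells, so these p-values describe the spread among libraries given the clusters. Among Mki67-negative cells, 2 of the other 5 genes (Cdkn1a and Btg1) were higher in placode-like than in basal cells, where 21.1% of genes passed. These 2 were also higher in suprabasal-like than in basal cells, where 23.4% passed, and between placode-like and suprabasal-like cells, where 26.1% passed, Cdkn1a was lower and Btg1 higher in the placode. Among Mki67-positive cells, 3 (Cdkn1a, Btg1 and Gadd45g) were higher in placode-like than in basal cells against 24.5% of genes, and 2 (Cdkn1a and Btg1) in suprabasal-like cells against 34.6%. Counts of 2 or 3 among 5 genes rest on too few genes to be told apart from these shares.

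**Figure D2:**
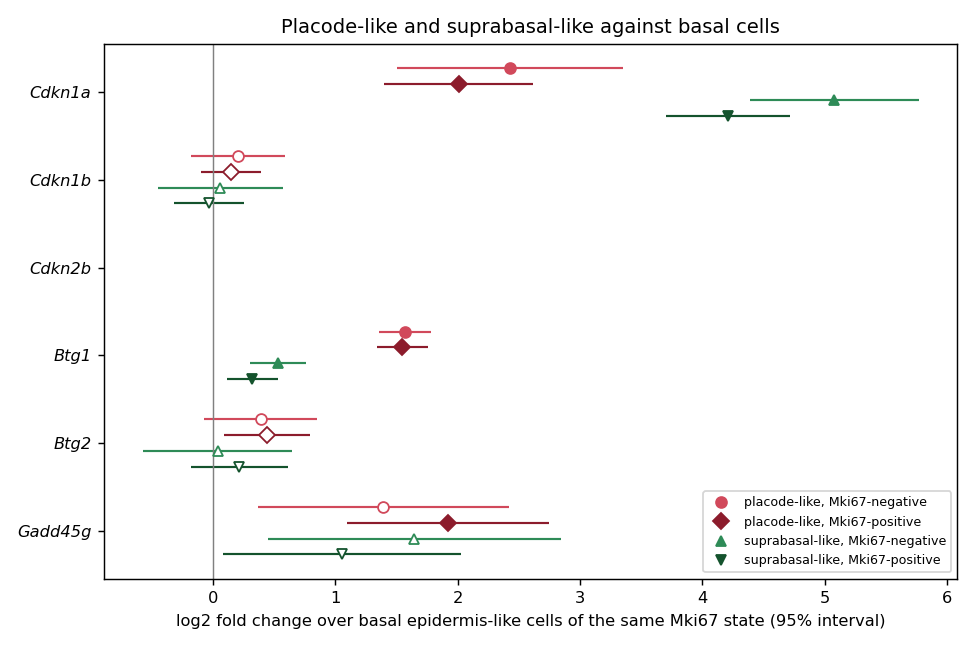
Log2 fold change of each gene over basal epidermis-like cells of the same Mki67 state, with 95% intervals, from edgeR on 3 libraries. Filled symbols have an adjusted p under 0.05, and Cdkn2b is not drawn. Cdkn1a stands farthest to the right in suprabasal-like cells, at 4.21 and 5.08, and Btg1 is at 1.55 and 1.57 in placode-like cells.

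Cdkn1a (gene 12575, chromosome 17, 29090979 to 29100722, GRCm38.p6, protein-coding) was high in suprabasal-like cells, intermediate in placode-like cells and low in basal cells. Its level over all cells of a class was 90.4, 34.6 and 37.8 CPM in suprabasal-like cells of total epithelium and placode-enriched libraries 1 and 2. In placode-like cells it was 10.0, 11.3 and 6.69 CPM, and in basal cells 3.56, 2.27 and 1.95. The ranges of the 3 classes did not overlap. A Cdkn1a UMI was seen in 65.0%, 44.0% and 43.0% of suprabasal-like, 17.8%, 13.7% and 11.3% of placode-like and 6.95%, 5.75% and 2.71% of basal cells, at median depths of 24129 to 26606, 20237 to 21140.5 and 21702 to 29156.5 UMIs. Thinning to 10000 UMIs kept that order, at 22.0% to 42.3%, 6.45% to 8.55% and 1.23% to 3.93%.

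Since none of these classes is known to lack Cdkn1a, its share of the suprabasal level was set beside that of the summed suprabasal markers. In placode-like cells these stood at 7.34%, 5.40% and 4.39% of their suprabasal level in the same library, and Cdkn1a at 11.1%, 32.7% and 17.7%. In basal cells the markers stood at 8.29%, 7.98% and 7.21% and Cdkn1a at 3.93%, 6.57% and 5.16%. The Cdkn1a level of basal cells was thus below the markers' share in all 3 libraries, and that of placode-like cells was above it in all 3. Cdkn2b stood lower than both, at 2.32%, 0% and 0% of its suprabasal level in basal cells and 0% in placode-like cells of each library. The part of free RNA in these levels was not tested.

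At a matched Mki67 state the class differences of Cdkn1a exceeded the spread between libraries. Among Mki67-negative cells it was higher in suprabasal-like than in basal cells by 5.08 ± 0.35 on the log2 scale (SE; adjusted p = 7.1e-10, edgeR) and in placode-like than in basal cells by 2.43 ± 0.47 (adjusted p = 0.000709). With no library block the latter was 1.86 with adjusted p = 0.0817. Basal cells without Mki67 held 25, 3 and 2 Cdkn1a UMIs, so in the placode-enriched libraries both differences rest on very few basal counts. Among Mki67-positive cells the differences were 4.21 ± 0.26 (adjusted p = 3.04e-11) and 2.01 ± 0.31 (adjusted p = 4.26e-05). Without Mki67, placode-like cells were lower than suprabasal-like cells by a log2 difference of -2.65 ± 0.31 (adjusted p = 1.47e-06), which was -1.54 without total epithelium. Inside the placode, the Shh-rich cluster 3 held 30.3, 14.3 and 8.23 CPM and the Fgf20-rich cluster 2 held 5.64, 6.20 and 4.08, so that cluster 3 was above cluster 2 in each library, on 14, 105 and 72 UMIs against 12, 27 and 21.

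With Mki67, Cdkn1a showed no single direction. In suprabasal-like cells without Mki67 it stood at 122, 20.3 and 35.9 CPM (312, 7 and 16 UMIs) and with Mki67 at 75.3, 37.8 and 38.2. The negative cells were thus higher in total epithelium and not in the placode-enriched libraries, which held 18 and 22 such cells. In placode-enriched library 2 that order hung on 1 positive cell with 31.7% of the UMIs. Without it the positive cells stood at 26.6 CPM, and the negative cells without their richest cell at 26.5. The fitted difference was 0.52 ± 0.23 (95% interval 0.07 to 0.97, adjusted p = 0.305), and -0.41 without the total epithelium library. It was 1.11 (adjusted p = 0.00639) when the negative cells also lacked a Top2a UMI and 0.71 (adjusted p = 0.0236) when cluster 8 was left unnamed. In placode-like cells Cdkn1a stood at 8.40, 9.61 and 9.40 CPM without and 10.8, 11.9 and 5.58 with Mki67 (0.07 ± 0.32, interval -0.56 to 0.70), and in basal cells at 3.14, 1.95 and 1.202 without and 3.76, 2.34 and 2.10 with it (-0.35 ± 0.47, interval -1.27 to 0.58). The 2 states overlapped in both classes. With cells split into terciles by cycle genes (described under Btg1), placode-like cells held 11.6 ± 1.70 CPM in the lowest and 5.29 ± 2.84 in the highest tercile (SD, n = 3 libraries). Basal cells held 2.09 ± 2.17 and 1.99 ± 1.10, and suprabasal-like cells 65.4 ± 62.9 and 43.5 ± 24.3. The placode difference passed the threshold in 0 of 17 alternatives, the tercile split among them.

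Cdkn1b (gene 12576, chromosome 6, 134920401 to 134925525, protein-coding) was the one gene that differed between Mki67 states past the threshold, and it was lower in cells without Mki67. In basal cells it stood at 12.6, 10.4 and 14.4 CPM without and 16.6, 16.8 and 28.8 CPM with Mki67, in the order total epithelium, placode-enriched 1 and 2. The 2 groups did not overlap. The difference was -0.56 ± 0.16 on the log2 scale (adjusted p = 0.0482, edgeR), and -0.87 without total epithelium. It was not past the threshold in 9 of 17 alternatives, among them DESeq2 (adjusted p = 0.0824), no library block (adjusted p = 0.643), and leaving out placode-enriched library 1 (adjusted p = 0.229) or 2 (adjusted p = 0.737). Its value ranged from -1.29 to -0.25 over the alternatives.

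The same order held in the other classes short of the threshold. In placode-like cells Cdkn1b stood at 9.60, 16.7 and 20.3 CPM without and 15.4, 19.5 and 31.4 with Mki67 (-0.50 ± 0.16, adjusted p = 0.0849, and 0.0147 without total epithelium). In suprabasal-like cells it stood at 11.4, 14.46 and 17.97 without and 15.1, 23.7 and 25.6 with Mki67 (-0.47 ± 0.25, adjusted p = 0.422). The negative cells were thus the lower ones in each class of each library, 9 of 9 pairs, although the libraries' ranges overlapped in these classes. Across cells grouped by 0, 1, 2 to 4 and 5 or more Mki67 UMIs, basal cells held 12.5, 12.1, 21.5 and 23.0 CPM (means of 3 libraries) and suprabasal-like cells 14.6, 19.0, 22.9 and 22.8.

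Between classes Cdkn1b was the most even of the 6. Over all cells it stood at 20.1 ± 7.41 CPM for placode-like, 19.1 ± 6.30 for basal and 20.1 ± 5.48 for suprabasal-like cells (SD, n = 3 libraries). These means lay well within the spread of the libraries, and no class contrast passed the threshold. The 95% intervals of the log2 difference among Mki67-negative cells were -0.18 to 0.59 for placode-like and -0.45 to 0.57 for suprabasal-like against basal cells. In total epithelium, basal cluster 0 stood at 31.2 CPM and basal cluster 1 at 11.8, a difference not tested.

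**Figure D3:**
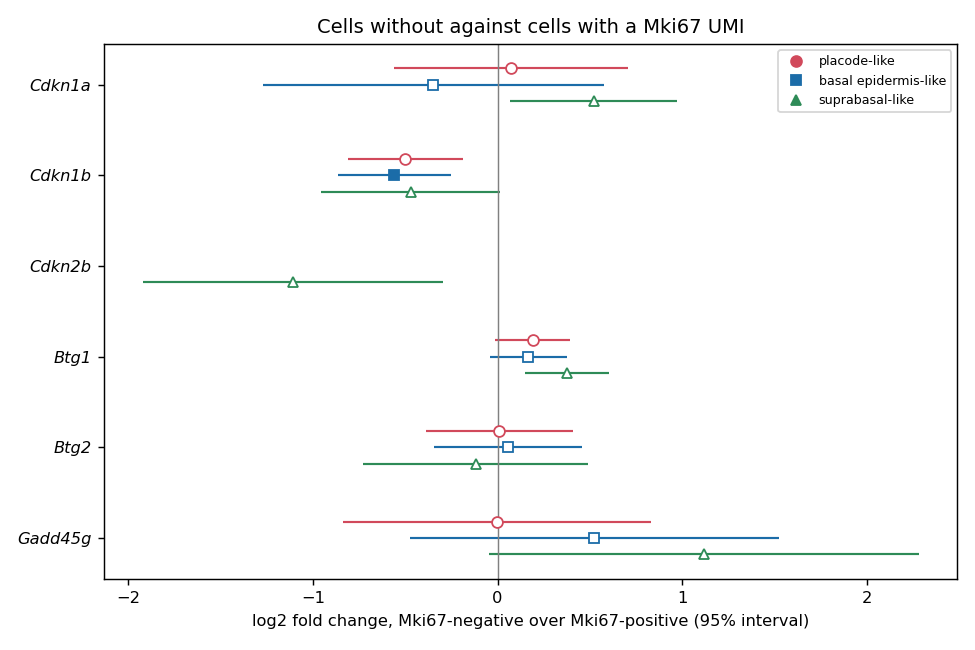
Log2 fold change of cells without over cells with a Mki67 UMI in each class, with 95% intervals, from edgeR on 3 libraries. The filled symbol, Cdkn1b in basal cells at -0.56, has an adjusted p under 0.05; Cdkn2b is drawn for suprabasal-like cells only.

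Cdkn2b (gene 12579, chromosome 4, 89306289 to 89311032, protein-coding) was found mainly in suprabasal-like cells. They held 12.6, 10.49 and 9.25 CPM, from 100, 20 and 24 UMIs. Placode-like cells held 0 UMIs in all 3 libraries, in 0 of 1289 cells, which allows a share of up to 0.233% of cells with a UMI, and basal cells held 7 UMIs in total epithelium (0.293 CPM) and 0 in both placode-enriched libraries. Suprabasal-like cells were therefore high and the other classes at or near 0 in each library. Against the 3 counts that a count of 0 allows in each library, the suprabasal level was at least 10.9-, 40.8- and 42.9-fold higher than the placode level. The bound was 109-fold over the 3 libraries summed, a sum in which total epithelium gave 100 of 144 suprabasal UMIs but 118 of 1289 placode-like cells. Against basal cells it was 43.1-fold higher in total epithelium (exact 95% counting interval 20.1 to 110) and at least 30.8- and 30.1-fold higher in the placode-enriched libraries, with the 3 counts taken per library.

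Cells with Mki67 carried more Cdkn2b than cells without it in each library, at 15.2, 12.2 and 9.77 against 7.06, 2.89 and 6.74 CPM. The latter rest on 18, 1 and 3 UMIs. The fitted difference of -1.11 ± 0.42 did not pass the threshold (interval -1.92 to -0.29, adjusted p = 0.204, edgeR). Its value ranged from -1.25 to -0.11 over 17 alternatives and passed the threshold in 0 of them. Split into terciles by cycle genes (described under Btg1), suprabasal-like cells held 11.4 ± 1.27 CPM in the lowest and 13.05 ± 3.18 in the highest tercile (SD, n = 3 libraries). The tercile means thus lay within the spread of the libraries. Both suprabasal clusters held the gene, cluster 4 at 12.5, 12.5 and 18.6 CPM and cluster 8 at 17.3, 9.64 and 5.04, on 3, 13 and 9 UMIs in the latter.

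Btg1 (gene 12226, chromosome 10, 96617001 to 96622813, protein-coding) was highest in placode-like cells. It stood at 788, 996 and 1024 CPM among placode-like, 312, 315 and 317 among basal and 321, 460 and 502 among suprabasal-like cells. Placode-like cells were above the other classes in every library, and suprabasal-like cells were above basal ones by a margin that in total epithelium was small. Among Mki67-negative cells the placode-like level was higher than the basal level by 1.57 ± 0.11 (adjusted p = 2.3e-09, edgeR) and higher than the suprabasal level by 1.038 ± 0.12 (adjusted p = 7.66e-07). Among Mki67-positive cells it was higher than the basal level by 1.55 ± 0.11 (adjusted p = 5.74e-10). All 3 calls held in each of 17 alternatives that gave them a value, with the basal differences between 1.03 and 1.75.

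Within the placode Btg1 was highest in the Shh-rich cells. It stood at 1140, 1074 and 1128 CPM in cluster 3 and 712, 865 and 848 in cluster 2, and the 2 clusters did not overlap. Unnamed cluster 7, led by Prss35, Steap4 and Wif1, was near cluster 2 at 779, 820 and 829 CPM, and unnamed cluster 5 lay lower at 631, 517 and 471. The suprabasal difference from basal cells depended on which cluster carried it. Cluster 4 held 318, 327 and 296 CPM, near the basal level, and cluster 8 held 455, 516 and 595. The fitted difference was 0.53 ± 0.12 among Mki67-negative cells (adjusted p = 0.00198), 0.06 with cluster 8 left unnamed and 0.60 with adjusted p = 0.0657 with no library block. Among Mki67-positive cells it was 0.32 ± 0.11 (adjusted p = 0.023), not past the threshold in 10 of 17 alternatives, one of them with no library block (0.35, adjusted p = 0.268). Leaving out placode-enriched library 1 ended both calls (0.32 with adjusted p = 0.119, and 0.27 with 0.153), and leaving out library 2 ended the second (0.19, adjusted p = 0.384).

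Btg1 stood higher in cells without Mki67 in every class of every library, 9 of 9 pairs, by a small margin. Placode-like cells held 897, 1100 and 1112 CPM without and 737, 956 and 988 with Mki67. Basal cells held 325, 320 and 377 without and 305, 314 and 305 with it, and suprabasal-like cells 344, 668 and 602 without and 310, 414 and 481 with it. Over libraries the states overlapped in placode-like and suprabasal-like cells but not in basal cells. The differences were 0.19 ± 0.10, 0.17 ± 0.11 and 0.38 ± 0.12 (adjusted p = 0.413, 0.538 and 0.0898, edgeR), and none passed the threshold. The suprabasal one passed in 5 of 17 alternatives, at up to 0.61, one of them without total epithelium (0.47, adjusted p = 5.28e-05), as did the placode one without that library (0.16, adjusted p = 0.00586).

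Splitting cells by many cycle genes in place of Mki67, an alternative chosen after seeing the data, gave the same order for Btg1. Cells thinned to 10000 UMIs were split by the summed UMIs of an S and a G2 and M phase list. The lowest tercile of placode-like cells held 1123, 1217 and 1154 CPM of Btg1 and the highest tercile 638, 906 and 1003, a difference of 0.48 (adjusted p = 0.0253). In basal cells the terciles stood at 377, 356 and 373 against 285, 333 and 302 CPM, and in suprabasal-like cells at 435, 779 and 687 against 274, 444 and 590, with a difference of 0.61 (adjusted p = 0.0136). The lowest tercile was the higher one in all 9 pairs. For Cdkn1b the order was the opposite in 8 of 9 pairs, with 12.8, 13.6 and 21.4 CPM in the lowest and 23.1, 21.8 and 34.5 in the highest tercile of placode-like cells.

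**Figure D4:**
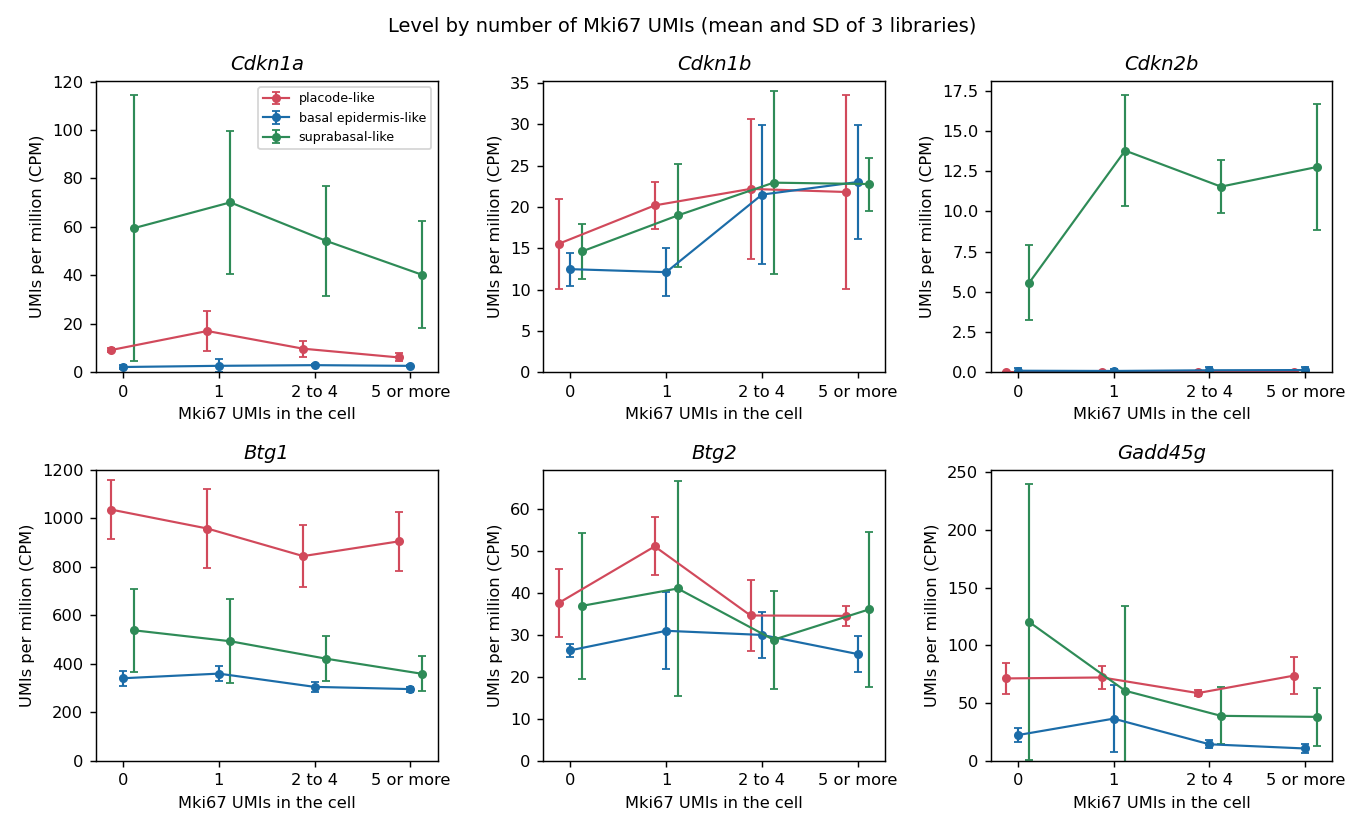
CPM of each gene (linear axis from 0) in cells with 0, 1, 2 to 4 and 5 or more Mki67 UMIs, as the mean and SD of 3 libraries per class; SD bars end at the axis. Btg1 in suprabasal-like cells runs from 538 to 359 CPM, and Cdkn1b in basal cells from 12.5 to 23.0.

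Btg2 (gene 12227, chromosome 1, 134074865 to 134079155, protein-coding), the immediate-early relative of Btg1, did not pass the threshold in any contrast. Placode-like cells held 31.7, 41.1 and 40.1 CPM, basal cells 25.01, 32.3 and 24.0 and suprabasal-like cells 17.8, 38.8 and 50.9. Placode-like cells were above basal cells in each library, but the ranges met (0.39 ± 0.24 without and 0.44 ± 0.18 with Mki67, adjusted p = 0.276 and 0.0816, edgeR). Without total epithelium these were 0.66 (adjusted p = 0.00725) and 0.52 (adjusted p = 6.43e-05). The suprabasal level was the lowest of the classes in total epithelium and not in the placode-enriched libraries. Without total epithelium its difference from basal cells with Mki67 was 0.64 against 0.21 ± 0.20. The 2 libraries of that fit stood apart, at log2 ratios of 0.11 and 1.16.

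Between Mki67 states the Btg2 differences were near 0. It stood at 28.8, 39.4 and 44.5 CPM without and 33.0, 41.7 and 38.3 with Mki67 in placode-like cells (0.01 ± 0.20, interval -0.39 to 0.41), at 25.6, 28.0 and 25.2 against 24.7, 33.2 and 23.8 in basal cells (0.06 ± 0.20), and at 18.05, 52.1 and 40.4 against 17.7, 35.9 and 53.1 in suprabasal-like cells (-0.12 ± 0.31, interval -0.73 to 0.49). The groups overlapped in each class.

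Gadd45g (gene 23882, chromosome 13, 51846675 to 51848475, protein-coding) was high in placode-like cells and in suprabasal cluster 8. It stood at 74.5, 67.7 and 61.7 CPM in placode-like and 21.1, 18.4 and 12.1 in basal cells, which did not overlap. Suprabasal-like cells held 15.4, 83.4 and 74.0 CPM, below basal cells in total epithelium and above them in the others. Cluster 4 stood at 13.9, 10.7 and 19.8 CPM and cluster 8 at 80.6, 114 and 98.5, on 14, 153 and 176 UMIs. Unnamed clusters 5 and 7 were low in the placode-enriched libraries, at 11.8 to 14.47 CPM.

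Among Mki67-positive cells Gadd45g was higher in placode-like than in basal cells by 1.92 ± 0.42 (adjusted p = 0.00163, edgeR), and past the threshold in each of 17 alternatives. Among Mki67-negative cells the difference was 1.39 ± 0.52 (adjusted p = 0.0642), past the threshold in 6 of 17 alternatives, at 1.55 without total epithelium. Suprabasal-like against basal cells gave 1.65 ± 0.61 (adjusted p = 0.0564) without and 1.05 ± 0.49 (adjusted p = 0.109) with Mki67. These became 2.77 (adjusted p = 1.77e-11) and 2.10 (adjusted p = 9.82e-14) without total epithelium, and the second became -0.91 (adjusted p = 0.00509) with cluster 8 left unnamed. Between placode-like and suprabasal-like cells without Mki67 the difference was -0.25 ± 0.56. It was -1.22 without total epithelium, from 2 libraries with log2 ratios of -1.93 and -0.37.

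Between Mki67 states the placode level of Gadd45g stood at 86.4, 66.7 and 60.8 CPM without and 68.9, 68.1 and 62.1 with it (log2 difference -0.00242, interval -0.84 to 0.83). Basal cells held 23.1, 28.0 and 15.6 without and 20.1, 16.4 and 11.4 with Mki67 (0.52 ± 0.51, adjusted p = 0.731). Suprabasal-like cells held 27.1, 255 and 78.6 CPM without and 9.85, 45.5 and 73.1 with Mki67. The negative cells were the higher ones in each basal and suprabasal pair. In placode-enriched library 1 the suprabasal value rests on 18 cells and was 214 CPM without the cell holding 20.5% of the UMIs. In placode-enriched library 2 the order hung on 1 negative cell of each class, holding 50% of the basal and 37.1% of the suprabasal UMIs. Without it the negative cells stood at 7.91 CPM in the basal and 52.2 CPM in the suprabasal-like class, below the positive cells. The suprabasal difference of 1.116 ± 0.59 missed the threshold (adjusted p = 0.43) and was 1.57 with cluster 8 left unnamed (adjusted p = 0.00482). It was 1.32 without total epithelium, from 2 libraries that stood far apart, at 255 against 45.5 and 78.6 against 73.1 CPM. Within cluster 4 of total epithelium the levels were 26.1 against 8.16 CPM.

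**Figure D5:**
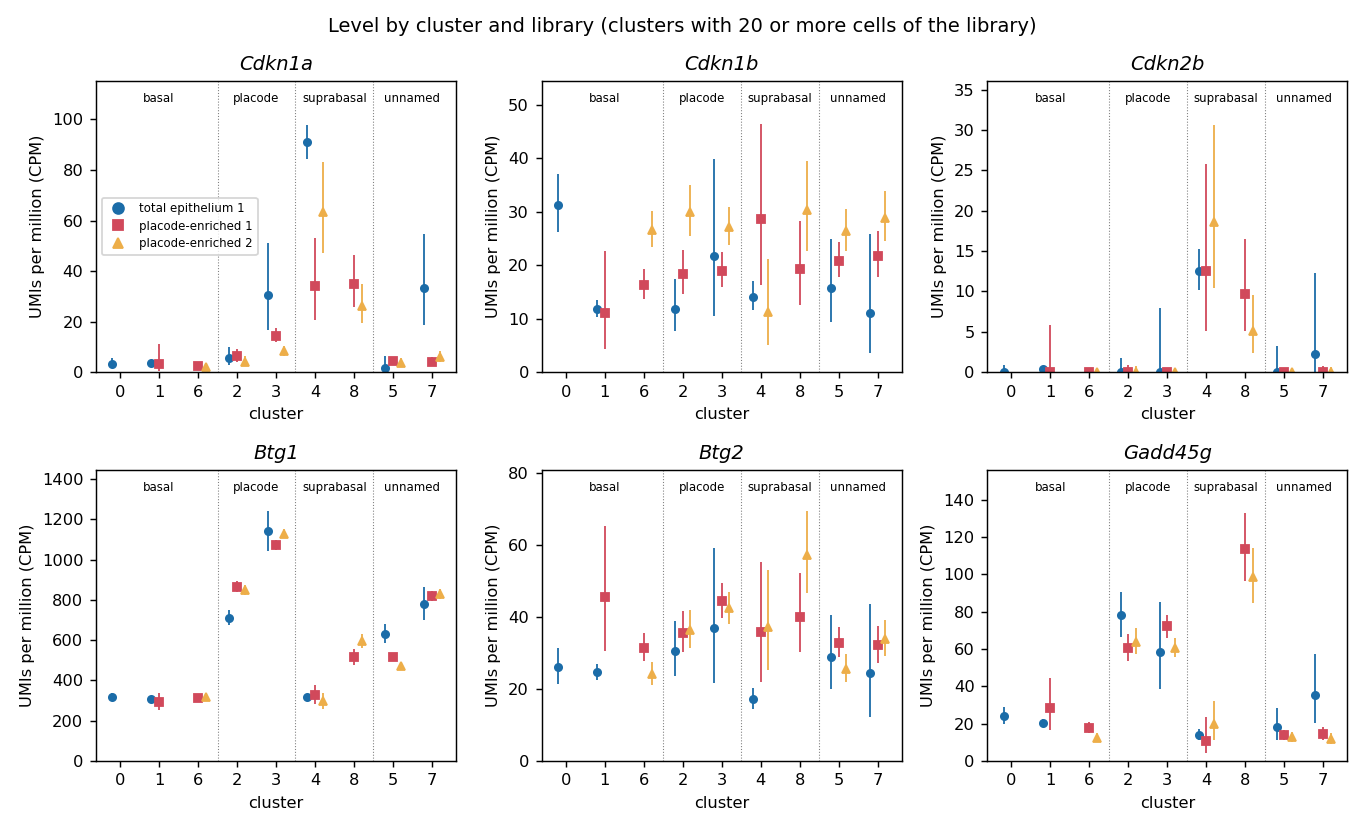
CPM of each gene (linear axis from 0) by cluster and library, for clusters with 20 or more cells of the library, with exact 95% Poisson counting intervals and the class names above. Btg1 is highest in placode cluster 3, Gadd45g in suprabasal cluster 8, and Cdkn1a and Cdkn2b in the suprabasal clusters.

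Whether the Mki67 difference of a gene itself differed between classes was tested with an interaction term. Of 10841 genes, 0 (0%) passed for placode-like and 0 (0%) for suprabasal-like against basal cells with edgeR, and 0 with DESeq2. At an unadjusted p under 0.05 there were 329 and 472. For Cdkn1a the estimate for suprabasal-like minus basal cells was 0.87 ± 0.52 (unadjusted p = 0.108), and for Cdkn2b, with 7 basal UMIs, it was -1.14 ± 1.42 (unadjusted p = 0.434). The data therefore do not show any of these genes to go with Mki67 in one class and not in another.

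Other inhibitors of the cycle that passed between Mki67 states were all lower in cells without Mki67. Of 19 tested members of a list of 20 other inhibitors, 0 were higher and 7 lower in Mki67-negative placode-like cells, 0 and 4 in basal cells and 0 and 5 in suprabasal-like cells, with medians of -0.26, -0.20 and -0.08 against 0.01, 0.02 and 0.02 over all genes, of which 4.75%, 3.69% and 3.65% passed in either direction. Leading the placode were Cdkn2c, an INK4 inhibitor (-2.76 ± 0.40), Cdkn3, a phosphatase of cyclin-dependent kinases (-1.95 ± 0.27), Cdkn2d, another INK4 inhibitor (-1.22 ± 0.19), and Ccng2, cyclin G2 (-0.99 ± 0.19). The same 4 genes led in suprabasal-like cells, at -2.34 ± 0.42, -1.64 ± 0.30, -1.51 ± 0.22 and -1.98 ± 0.42. These are inhibitors by name, and Cdkn3 and Cdkn2c transcripts are known to peak in dividing cells.

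The lists around the brakes set the scale. All 25 G2 and M phase genes were lower in Mki67-negative cells of each class, with medians of -2.74, -2.48 and -2.40 in placode-like, basal and suprabasal-like cells. Nusap1, a spindle protein, led in the placode (-3.74 ± 0.18), and Aurkb, a mitotic kinase, in suprabasal-like cells (-3.26 ± 0.23). The 25 S phase genes went both ways, 5 higher and 5 lower in the placode, 12 and 2 in basal cells and 4 and 2 in suprabasal-like cells. Ung, a DNA repair enzyme of early S phase, was higher (0.96 ± 0.15 in the placode, 0.95 ± 0.17 in suprabasal-like cells), as was the replication factor Gins2 (0.73 ± 0.14 and 1.09 ± 0.17), and Rrm1 and Tyms, which supply nucleotides, were lower (-0.998 ± 0.12 and -0.98 ± 0.12 in the placode). Cells without Mki67 thus carried S phase transcripts.

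Among the lists of regulators, few genes passed between Mki67 states. Of 16 tested p53 targets, 1 was higher in placode-like cells, Trp53inp1 (1.01 ± 0.24, adjusted p = 0.0119, edgeR), 1 in basal cells and 0 in suprabasal-like cells. Of 17 TGF-beta and Smad genes and 14 FoxO and quiescence genes, 0 passed in any of the 3 classes. Of 17 cyclins, kinases and E2fs, the placode and the suprabasal class each had 1, Cks1b, a kinase subunit, lower by -0.81 ± 0.12 and -0.86 ± 0.14, and basal cells had 1 higher and 1 lower.

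Between classes, where 21.1% of all genes passed for placode-like and 23.4% for suprabasal-like against basal cells, the lists gave the following counts. Among Mki67-negative cells, placode-like against basal cells, 5 TGF-beta and Smad genes were higher and 1 lower (median 0.41), 6 FoxO and quiescence genes higher and 1 lower (0.18), and 4 p53 targets higher and 3 lower (0.09), against -0.03 over all genes. In suprabasal-like against basal cells 3 p53 targets were higher and 0 lower (0.26), and 1 TGF-beta and Smad gene was higher and 2 lower (-0.02). Named after their values were seen, the ligand gene Tgfb1 was higher in placode-like (1.91 ± 0.19) and lower in suprabasal-like cells (-2.25 ± 0.45), the p53 target Perp, a desmosomal gene, was lower in the first (-0.92 ± 0.08) and higher in the second (1.72 ± 0.08), and Hes1, a Notch target, was higher in both (0.58 ± 0.17 and 2.14 ± 0.18). Other inhibitors were 1 higher and 3 lower in placode-like and 2 higher and 5 lower in suprabasal-like cells. Among Mki67-positive cells, where 34.6% of all genes passed for suprabasal-like against basal cells, 7 of 19 other inhibitors were higher and 4 lower in suprabasal-like cells.

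Immediate-early genes are a class that Btg2 belongs to and that tissue dissociation can induce. Of 18 tested, 8 were higher and 3 lower in Mki67-negative placode-like than basal cells (median 0.67), 8 and 1 in suprabasal-like cells (0.55), and 0 and 1 between Mki67 states in each class, against the same shares of all genes as above. The 1 gene between states was the chaperone Hspa8 in placode-like and suprabasal-like cells (-0.27 ± 0.07 and -0.31 ± 0.08). Their summed level was 2178 to 3261 CPM for placode-like, 2034 to 2720 for basal and 2379 to 4589 for suprabasal-like cells. Hspa8 had the highest mean of the list in each class, at 1894, 1978 and 1903 CPM in the same order. In suprabasal-like cells Hspb1, a keratinocyte heat shock protein, gave a mean of 1060. The sums therefore say little about the other genes of the list. The part of the listed genes in the class differences of Btg1, Btg2, Gadd45g and Cdkn1a was not tested.

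Markers of other cells also differed between classes. Of 8 fibroblast markers 6 were measured, and their sum was 1208 to 1870 CPM for placode-like, 625 to 857 for basal and 224 to 341 for suprabasal-like cells, nearly all from Dcn and Postn. Of the others, Col1a1, Col3a1, Lum and Col1a2 had means of 0.0571, 1.03, 3.45 and 9.30 CPM in placode-like and 0.186, 0.601, 1.02 and 8.45 in basal cells. Periderm markers, 7 of 7 measured, summed to 1910 to 2621 CPM in suprabasal-like, 512 to 860 in basal and 305 to 597 in placode-like cells. Nearly all came from Sfn and Grhl3 in suprabasal-like and basal cells. In placode-like cells Sfn led with a mean of 359 CPM, and Grhl3, at 8.07, was below Krt18 and Krt8. The periderm keratins Krt6a, Krt4 and Krt19 had means of 0.471, 0.728 and 4.64 CPM in suprabasal-like cells, and Krt8 and Krt18 were higher in placode-like (8.70 and 28.1) than in suprabasal-like cells (0.777 and 5.47). Of the 4 immune markers 1, Cd74, was measured, at 72.9 to 151 CPM in placode-like and 1.57 to 43.4 in suprabasal-like cells. Their part in the levels of the 6 genes was not tested.

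Across the 18 sums, with each library's mean removed, the genes nearest in pattern to each brake were found among 10840 others by Pearson correlation of log2(CPM + 1). The sums share libraries, depth and cells, so these values describe only likeness. Btg1 was most like Frem1 (0.99), Cyfip2 (0.98) and Shh (0.98), and Cdkn2b was most like Dsg1a, a desmosomal cadherin of differentiating layers, Hras and Tmem79 (each 0.98). Cdkn1a was most like Sort1, Aph1b and Kdm5b (each 0.97). Cdkn1b was most like Zranb3 (0.90), Gas2l3 (0.89) and Fzr1 (0.88), the last an activator of the anaphase-promoting complex. Btg2 was most like Tsc22d1 (0.89), Plk3 and Arl4c (each 0.88), and Gadd45g like Zfp566, Soat1 (each 0.93) and Arl4c (0.92). Among the 6 genes themselves, Cdkn1a and Cdkn2b (0.87) and Btg2 and Gadd45g (0.86) were nearest to each other, and Btg1 and Cdkn2b farthest apart (-0.27).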

How the data were processed

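Single-cell RNA was measured in 1 total epithelium and 2 placode-enriched libraries. The files deposited by the authors gave UMI counts, whole numbers for each gene in each cell. The submitters' processing notes list Cell Ranger, Seurat and mm10 and no versions of them. The annotation and the cell filters are not given in the sources used here. Both placode-enriched libraries shared 1 table, and the number ending each barcode was taken as the library.

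Doublets were called with scrublet in scanpy 1.11.5 (expected rate 0.05). Those marked, 11, 4 and 4 cells, were removed, which left 4664 of 4683 cells. These are 0.255% to 0.687% of a library, so doublets may remain, and an alternative left out 73 cells above 2 times the median UMIs. Leiden clusters at resolution 1 (igraph 0.11.9) were built from 1000 variable genes, reduced to 30 components with 20 neighbours per cell, out of 6077 genes without the 6 members, the gene lists and genes that follow the cycle. Naming needed 6 of 9 placode, 3 of 8 suprabasal (at 25% of the highest cluster's level), 7 of 7 basal or 5 of 6 melanoblast markers (at 50%), numbers set after the clusters had been seen.

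UMIs were summed per library, class and Mki67 state and tested with edgeR 4.0.16 (R 4.3.3; TMM, filterByExpr, quasi-likelihood F test, library as a block because each library gives every class) at an adjusted p of 0.05; checked on simulated data. CPM are UMIs per 1000000 UMIs of the sum. Counting intervals are 95%, and a count of 0 allows 3 counts; both cover counting error only. Depth was 34900788 to 38645840 UMIs per library. Alternatives included DESeq2 1.42.0, and 3 were chosen after seeing the data: cycle genes kept in the clustering, a suprabasal rule of 4 markers, and terciles of the cycle lists. Named were the 6 members, for each the 3 genes of nearest pattern, and from each list the 4 genes with the largest change past the threshold in the Mki67 contrast of placode-like and of suprabasal-like cells. Clusters 5 and 7, Tgfb1, Perp, Hes1, Hspb1, the fibroblast, periderm and immune markers were named after their values were seen. The members and lists were chosen with earlier results of these data known.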

Additional observations from a re-analysis of the deposited data

Results flagged for a closer look

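For 10 contrasts of 4 genes the total epithelium library moved one way and both placode-enriched libraries the other. The values are log2 ratios of CPM, given for total epithelium and then for placode-enriched libraries 1 and 2, and with 1 library on one side the difference was not tested. Cdkn1a without over with Mki67 in suprabasal-like cells was 0.70 against -0.90 and -0.09. The sign of the last value hung on 1 Mki67-positive cell that held 31.7% of the UMIs. Gadd45g in the same contrast of placode-like cells was 0.33 against -0.03 and -0.03.

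Among Mki67-negative cells, Gadd45g of placode-like over suprabasal-like cells was 1.67 against -1.93 and -0.37, and Btg2 of suprabasal-like over basal cells was -0.51 against 0.90 and 0.68. Cdkn1b was -0.39 against 0.68 and 0.49 for placode-like over basal, -0.14 against 0.47 and 0.32 for suprabasal-like over basal, and -0.24 against 0.21 and 0.17 for placode-like over suprabasal-like cells.

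Among Mki67-positive cells, Gadd45g of suprabasal-like over basal cells was -1.03 against 1.47 and 2.68, Btg2 -0.49 against 0.11 and 1.16, and Cdkn1b of placode-like over basal cells -0.11 against 0.22 and 0.12. The suprabasal-like cells of total epithelium were 310 of 320 from cluster 4, and those of the placode-enriched libraries were 55 of 75 and 71 of 93 from cluster 8. The part of this difference in the values above was not tested.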

How the results depend on the processing

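Counts of genes past the threshold are given for cells without against with Mki67 in placode-like, basal and suprabasal-like cells (515, 400 and 396 genes), and for the class contrasts placode-like against basal (1402 in Mki67-negative and 1627 in Mki67-positive cells), suprabasal-like against basal (1554 and 2300) and placode-like against suprabasal-like (1736). With no replicate block, that is without the library term, they were 253, 208 and 180, then 740 and 716, 843 and 1292, and 1155; it ended 4 calls of the 6 genes, all given above (Cdkn1a of placode-like over basal cells without Mki67, Cdkn1b between Mki67 states of basal cells, and Btg1 of suprabasal-like over basal cells in both states). Thinning gave 308, 240 and 140, 1040 for placode-like and 1380 for suprabasal-like against basal cells with Mki67. A split at 2 or more Mki67 UMIs gave 601 in basal cells, and cells with neither Mki67 nor Top2a gave 840 for placode-like against basal cells. Resolution 0.5 gave 774 in placode-like and 713 in basal cells, the suprabasal rule of 4 markers 773 in placode-like cells, and unnamed clusters counted as basal 959 in basal cells and 902 for placode-like against basal cells without Mki67. Terciles of the cycle lists gave 636 in suprabasal-like cells, 901 and 686 for placode-like against basal, 951 for suprabasal-like against basal and 1132 for placode-like against suprabasal-like cells, and 1 gene in the suprabasal interaction in place of 0. The cause of these shifts was not tested, except that thinning uses fewer UMIs.

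Leaving out 1 library in turn, the counts ran from 205 to 1295 in placode-like, 213 to 665 in basal and 148 to 593 in suprabasal-like cells, from 595 to 1696 and 719 to 2582 for placode-like against basal, 858 to 1135 and 1619 to 2191 for suprabasal-like against basal and 913 to 1246 for placode-like against suprabasal-like cells, and from 0 to 23 and 0 to 62 for the interactions. The highest counts between Mki67 states and for the interactions came without total epithelium. Each of these fits rested on 2 libraries. Of 60 values of the 6 genes, 31 changed sign under at least 1 alternative, and in 4 the value was past the threshold in one of the settings: Btg1 of suprabasal-like over basal cells with unnamed clusters counted as basal (-0.00254 in Mki67-negative and -0.0708 in Mki67-positive cells), and Gadd45g with the suprabasal rule of 4 markers (1.45 for placode-like over suprabasal-like cells without Mki67 and -0.91 for suprabasal-like over basal cells with it).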
